A study of Homo sapiens with 32 samples.

Results

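The genes described here are the NF-kB transcription factor subunits NFKB1, NFKB2, REL and RELB, the IkB proteins NFKBIA, NFKBIB, NFKBIE and BCL3, and the signalling inhibitors TNFAIP3 and TNIP1. Each of the 10 genes was matched through the platform's gene symbols to a transcript cluster, a probe set summarised as 1 value per array, and each had a single such cluster. They make up 10 of the 14405 clusters with exactly 1 gene symbol among 21788 clusters in all. All 10 lay above the background of 6.40 on the log2 scale, which is the 95th percentile of olfactory receptor clusters, and so entered the tests with 14167 clusters.

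The study asked how stable mRNAs are in human B-lymphoblastoid lines, which are B cells immortalised by Epstein-Barr virus, and whether that differs between donors. Cultures of 7 HapMap lines received 200 µM of 4-thiouridine for 2 h, a nucleoside that marks RNA made during that time. Nascent (labelled) RNA and total RNA from the same culture were put on separate exon arrays, 16 of each. GM07029, GM10835 and GM12813 had 3 independent cultures each, with every GM12813 culture arrayed again as a technical duplicate, and GM07019, GM12812, GM12814 and GM12815 had a single culture. Every group carried the same label and no culture went without it, every line comes from a single donor, and the 4 lines with a single culture have no spread of their own. Of the B cell markers on the array, 9 of 9 were above background in mean signal over all nascent and total arrays (9.86 to 10.45). None (0 of 10) of the markers for T or NK cells exceeded it (4.93 to 5.11). Of those for myeloid cells 1 of 7 did, ELANE (5.15 to 5.42). Of those for fibroblasts or epithelia 6 of 10 did, COL1A1, COL1A2, PDGFRB, KRT8, KRT18 and KRT19 (6.07 to 6.25). Values in brackets are the lowest and highest line means of the whole list in total RNA. They do not show whether a single marker exceeded background in total RNA alone. The part of other cells in the results was not tested, and in such bulk RNA fewer cells with a transcript cannot be told apart from less of it per cell.

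NF-kB proteins act as dimers of Rel-family subunits. NFKB1 encodes p105, which is processed to p50, and NFKB2 encodes p100, which is processed to p52, whereas REL and RELB encode subunits that activate transcription directly. The classical IkB proteins encoded by NFKBIA, NFKBIB and NFKBIE hold dimers inactive until IkB kinases mark them for destruction, while p100 restrains RELB until the alternative pathway processes it. BCL3 is a nuclear IkB that binds p50 and p52 dimers, TNFAIP3 (A20) edits ubiquitin chains upstream of the kinases, and TNIP1 (ABIN-1) binds ubiquitin and A20. In B-lymphoblastoid cells the viral membrane protein LMP1 signals like CD40 and keeps both branches active, and many of the inhibitors are themselves NF-kB targets.

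Because many of the inhibitors are NF-kB targets, the promoters of the members were read for the kB consensus motif. It was searched on both strands with overlapping matches allowed. The windows were RefSeq promoters of GRCh38.p14, each running from 250 bases before to 50 bases after an annotated start. Of the members, 8 had windows in the table, and RELB and NFKBIE were not listed there. All 8 had a match in at least 1 window (9 of 13 windows), against 7.09% of all 27305 genes and 5.91% of all 35116 windows of the same length, and 13.6% of the 5191 genes with at least 2 windows. RELA, the remaining Rel subunit gene, had no match in its 2 windows. The sites below are shown because each of these 8 members has a match between positions -107 and 11 of a start. They are written 5′ to 3′ on the strand of the gene, with the bases covered by a match in capitals.
NFKB1: cgacgtcagtGGGAATTTCCagccaggaag
NFKB2: aaacgtcatGGGAATTCCCCcctccgggg
REL: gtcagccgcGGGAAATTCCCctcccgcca
NFKBIA: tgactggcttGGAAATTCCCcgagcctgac
NFKBIB: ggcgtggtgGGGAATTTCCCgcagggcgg
BCL3: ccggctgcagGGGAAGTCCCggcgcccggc
TNFAIP3: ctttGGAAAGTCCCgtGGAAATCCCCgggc
TNIP1: ccagtctccgGGGACTTTCCcaggggtggg
The stretch of NFKB1 is at chr4:102501300-102501329 (plus strand), that of NFKB2 at chr10:102394462-102394490 (plus), that of REL at chr2:60881518-60881546 (plus) and that of NFKBIA at chr14:35404811-35404840 (minus). That of NFKBIB is at chr19:38899932-38899960 (plus), that of BCL3 at chr19:44748700-44748729 (plus), that of TNFAIP3 at chr6:137867188-137867217 (plus) and that of TNIP1 at chr5:151081057-151081086 (minus). The matches of NFKB2, REL and NFKBIB shown here are near-palindromes that matched on both strands, so that 11 bases are covered by 3, 2 and 2 overlapping matches. TNFAIP3 has 2 separate matches within a single stretch of 30 bases, and BCL3 is the only member whose match lies after the start. NFKB2 also had 3 further matches, 1 in the same window and 2 in another. A match describes the letters and does not show binding.

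**Figure D1:**
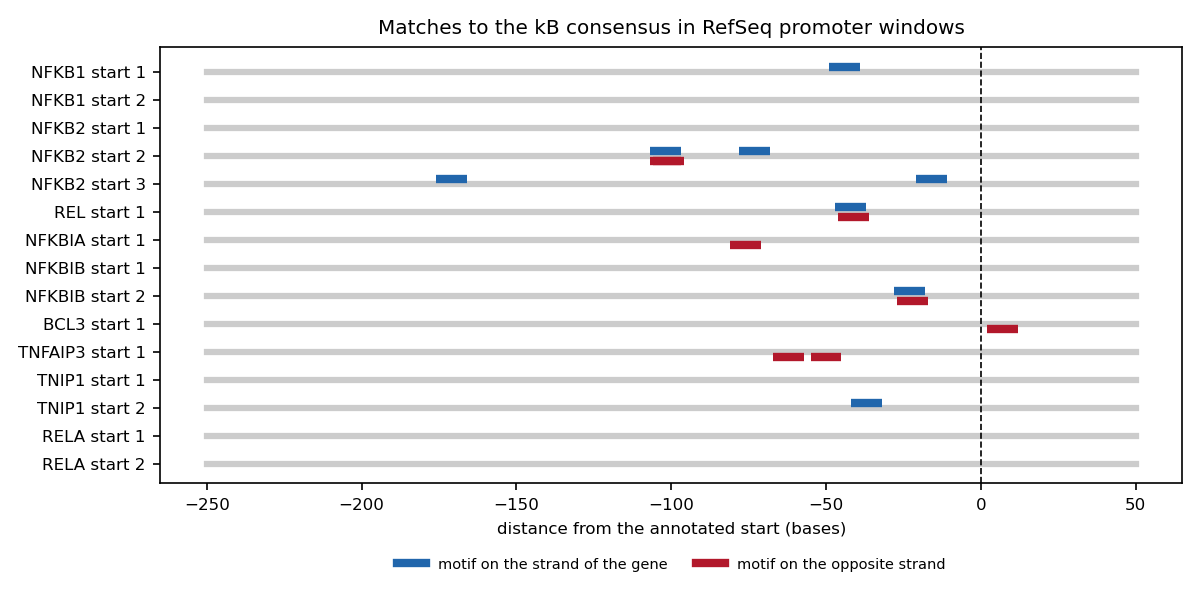
Position of matches to the kB consensus in RefSeq promoter windows, in bases from the annotated start (dashed line), for 8 members and RELA. Grey lines are the windows, and coloured bars are 10-base matches on the strand of the gene or the opposite strand. Matches begin between positions -176 (NFKB2) and 2 (BCL3), and the 2 RELA windows have none.

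The first comparison asked whether these transcripts had a labelled share above or below that of the median cluster in the same culture. The ratio is nascent minus total log2 signal, centred on that median, and the line is the replicate (n = 7). Before centring the median ratio of a culture was 0.65 to 0.88, so directions are relative to the median cluster. In the reading the study gives it, a high ratio goes with fast replacement. TNIP1 and TNFAIP3 stood highest, with ratios above 0 in all 7 lines. NFKB2 and RELB stood lowest, below 0 in 6 of 7 lines. Whether the order follows the roles of the genes was not tested. Over the members, 4 passed the test as higher (TNIP1, TNFAIP3, NFKBIE and NFKB1), 2 as lower (NFKB2 and RELB) and 4 did not pass, where 63.5% of all clusters tested were called (31.7% higher and 31.7% lower). The share called, 6 of 10, is near that background, and 3 of 10 members had 1 sign in all 7 lines against 50.1% of clusters. The median ratio was 0.13 for the members and -0.01 for all clusters tested.

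TNIP1 had nascent signals from 9.68 in GM12815 over a median of 10.54 to 10.93 in GM10835, against total signals from 8.06 in GM12815 over 8.40 to 8.96 in GM10835 (log2, before centring). No nascent value of a line was as low as any total value. Its centred ratio was 1.27 ± 0.30 (SD, n = 7 lines), lowest in GM07029 (0.83), with a median of 1.37 and highest in GM12812 (1.59). This is 2.42-fold above the median cluster (limma, 95% interval 1.02 to 1.53, adjusted p = 2.49e-06) and higher than 94.3% of clusters tested. TNFAIP3 had nascent signals of 11.23 (GM12812) to 12.13 (GM10835) with a median of 11.82, against total signals of 10.22 (GM12815) to 10.70 (GM07029) with a median of 10.41. Before centring the fractions did not overlap across lines, but relative to the median cluster they did. On that scale nascent RNA was 2.46 (GM12812) to 3.17 (GM07029) and total RNA 2.33 (GM07019) to 2.78 (GM12814). Its ratio was 0.49 ± 0.21, from 0.10 in GM12812 over a median of 0.52 to 0.78 in GM10835 (1.41-fold, adjusted p = 0.000521). Both calls held under all 20 alternative settings.

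Among the IkB proteins, NFKBIE, which encodes IkB epsilon, had a ratio of 0.25 ± 0.26, from -0.20 in GM12815 over 0.27 to 0.61 in GM10835 (95% interval 0.04 to 0.46, adjusted p = 0.0403). GM12815 was the only line below 0. Its call ended under 9 of 20 settings, among them leaving out GM07019 (adjusted p = 0.0781), GM07029 (0.110), GM10835 (0.102), GM12812 (0.0617) or GM12814 (0.0807). NFKBIA, which encodes the fast-acting IkB alpha, had nascent signals of 12.13 to 13.14 against total signals of 11.48 to 12.35. Its ratio of -0.08 ± 0.23 (95% interval -0.27 to 0.12, adjusted p = 0.474) was above 0 in 3 lines and below 0 in 4. Once the dependence of ratios on signal was removed, its ratio was 0.55 (adjusted p = 0.000283). Without centring it was 0.70 (adjusted p = 1.84e-05), while with each array centred on its own median it was -0.22 (adjusted p = 0.0369), so its direction depends on the scaling. NFKBIB, which encodes IkB beta, had a ratio of -0.04 ± 0.20 (95% interval -0.23 to 0.14, adjusted p = 0.664), which was 0.73 without centring. BCL3 had 0.14 ± 0.21 (95% interval -0.05 to 0.33, adjusted p = 0.176), with 5 lines above 0.

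Among the subunits, RELB had nascent signals of 8.64 (GM12815) to 9.78 (GM10835) and total signals of 8.71 (GM07029) to 9.37 (GM12812), with medians of 9.36 and 9.05. The fractions overlapped, unlike those of TNIP1. Its ratio was -0.46 ± 0.30, from -0.81 in GM12815 over -0.50 to 0.02 in GM10835 (adjusted p = 0.00208), higher than 20.0% of clusters tested. The call held under 19 of 20 settings and turned to 0.31 without centring (adjusted p = 0.0256). NFKB2 had a ratio of -0.26 ± 0.30, from -0.83 in GM12815 over -0.22 to 0.17 in GM10835 (95% interval -0.49 to -0.03, adjusted p = 0.0445). Its call ended or turned under 14 of 20 settings: without centring it was 0.51, with the dependence on signal removed -0.03 (adjusted p = 0.781), and without GM12815 -0.17 (adjusted p = 0.120). It also ended without GM07019 (0.0939), GM07029 (0.0676), GM12812 (0.0535), GM12813 (0.0759) or GM12814 (0.0798).

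NFKB1 had the narrowest spread of the members. Its ratio was 0.19 ± 0.11, from 0.09 in GM12812 over 0.18 to 0.37 in GM12813, and above 0 in 7 of 7 lines (95% interval 0.04 to 0.35, adjusted p = 0.0329). The SD of its ratio between lines was smaller than that of all but 2.42% of clusters tested. The call ended under 9 of 20 settings, and with each array centred on its own median the ratio was 0.05 (adjusted p = 0.569). It also ended without GM07019 (adjusted p = 0.0511), GM07029 (0.0527), GM10835 (0.0683), GM12813 (0.0937), GM12814 (0.0680) or GM12815 (0.0507). REL had the widest spread, 0.13 ± 0.39 (95% interval -0.14 to 0.40, adjusted p = 0.383), from -0.61 in GM12812 to 0.58 in GM12815. Without GM12812 its ratio was 0.25 and passed the test (adjusted p = 0.0382), and so it did with the dependence on signal removed (0.33, adjusted p = 0.0244) or without centring (0.90, adjusted p = 1.73e-05).

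Ordered by mean ratio, the members ran TNIP1, TNFAIP3, NFKBIE, NFKB1, BCL3, REL, NFKBIB, NFKBIA, NFKB2 and RELB. Neighbours were compared over the 7 lines with a two-sided exact sign-flip permutation test, for which the smallest p is 0.0156. TNIP1 exceeded TNFAIP3 by 0.78 ± 0.45 and in 7 of 7 lines (exact p = 0.0156, adjusted p = 0.14 over 9 pairs). NFKB2 exceeded RELB by 0.20 ± 0.16 in 6 of 7 lines (exact p = 0.0312, adjusted p = 0.14). None of the 9 neighbouring pairs passed after adjustment, and those between NFKBIE and NFKB2 had exact p from 0.188 to 0.953. A pair at the smallest p, as TNIP1 over TNFAIP3, reached only 0.14, so it could not pass by itself. The pairs and their direction also came from ranking the same means. The lack of a call therefore does not show that neighbours are alike.

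**Figure D2:**
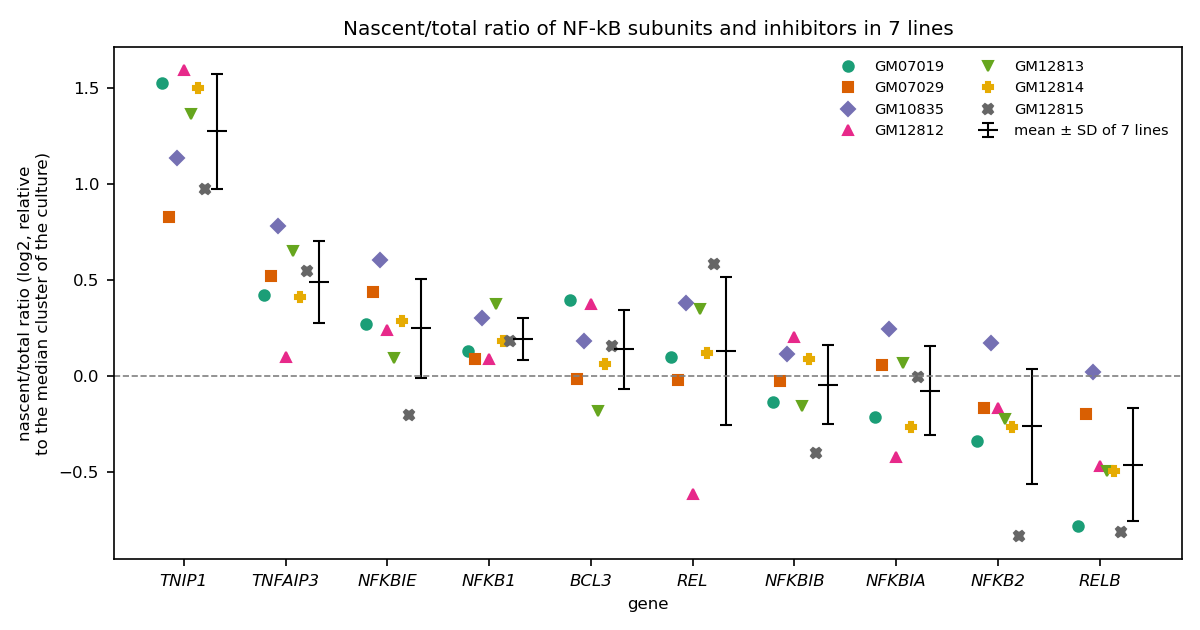
Nascent/total ratio (log2, median cluster of each culture at 0) of the 10 genes, ordered by mean. Symbols are the 7 lines (means of cultures where there are several), and black bars are mean ± SD. All 7 lines lie above 0 for TNIP1, TNFAIP3 and NFKB1, and GM10835 is the only line above 0 for NFKB2 and RELB.

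Across all 7 lines the members fell into differing patterns of nascent RNA, given here as log2 signal relative to the median cluster of the array. Nascent RNA was lowest in GM12815 for 6 of 10 members: NFKB2, RELB, NFKBIA, NFKBIB, NFKBIE and TNIP1. Of all clusters tested, 17.7% had their lowest nascent value there. NFKB2 stood at 1.04 in GM12815, where the other 6 lines lay up to 2.15 (GM10835), and NFKBIE stood at 1.22, where the highest value was 2.56 (GM10835). REL ran the other way: its nascent RNA was highest in GM12815 (2.65), with a median of 1.77, and lowest in GM12812 (0.66). GM12815 also held the highest nascent value of 33.9% of all clusters tested, so a peak there is common. NFKB1 and TNFAIP3 also had their lowest nascent value in GM12812 (2.16 and 2.46), and highest in GM07029 (2.68 and 3.17). GM12812 held the lowest nascent value of 16.7% of all clusters, and GM07029 the highest of 12.5%.

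Total RNA varied less than nascent RNA for some members and more for others. For NFKB2 the SD between lines was 0.39 in nascent RNA and 0.19 in total RNA, for REL 0.62 and 0.33, and for NFKBIE 0.45 and 0.34. For TNIP1 it was 0.25 in nascent and 0.33 in total RNA, and for BCL3 0.14 and 0.25. No test of these spreads was made. GM10835 had the highest ratio of 5 of 10 members (NFKB2, RELB, NFKBIA, NFKBIE and TNFAIP3), as it had of 24.6% of all clusters. GM12815 had the lowest ratio of 4 members (NFKB2, RELB, NFKBIB and NFKBIE), as it had of 18.3% of clusters. GM12812 had the lowest ratio of as many (NFKB1, REL, NFKBIA and TNFAIP3), and of 23.3% of clusters. GM12812 and GM12815 are single cultures, so these extremes have no replicate check.

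**Figure D3:**
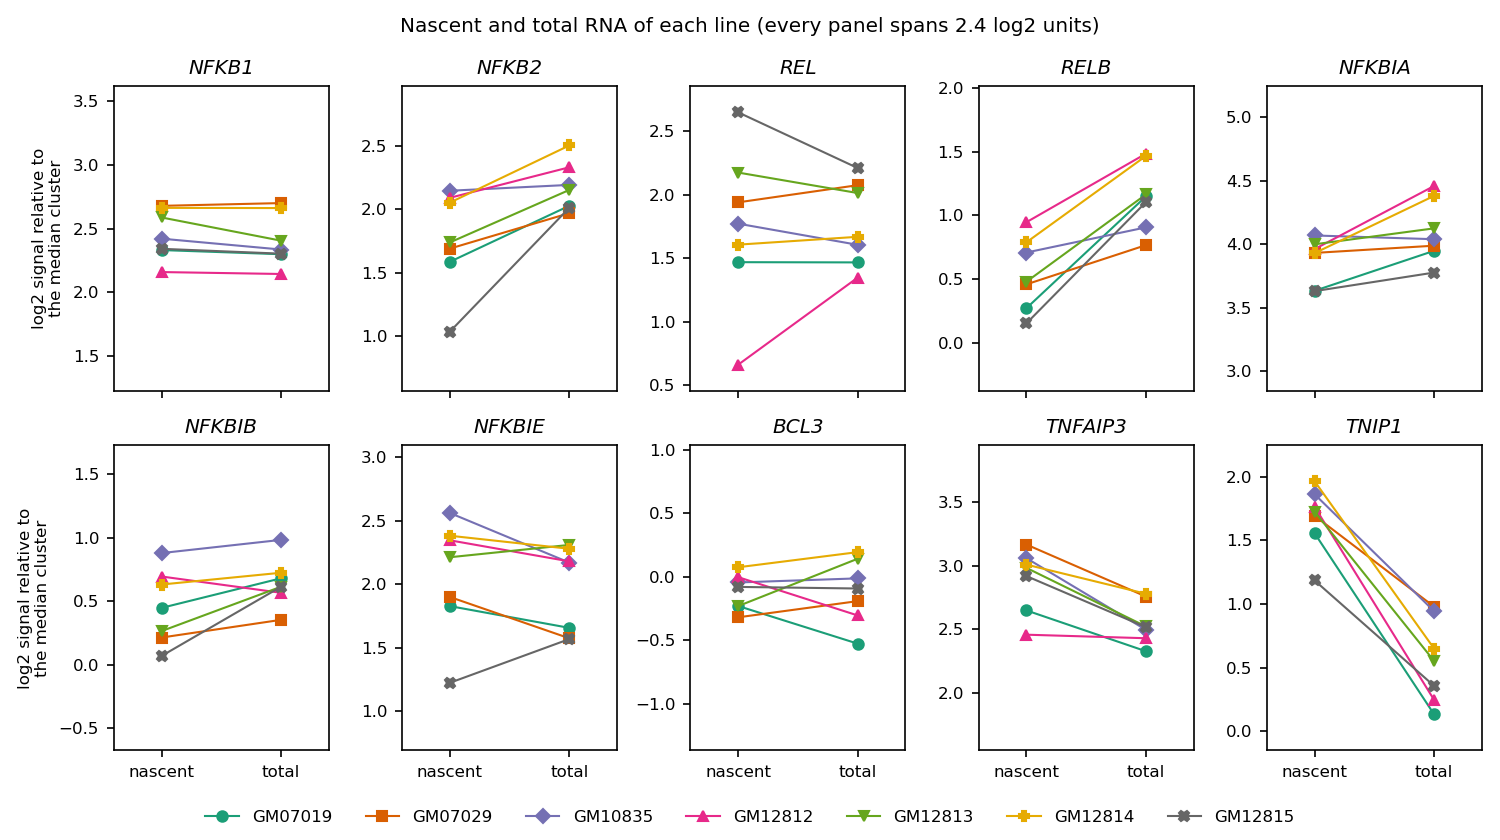
Nascent and total RNA of the 10 genes in 7 lines (log2 signal relative to the median cluster of the array). Every line of the plot joins both fractions of a cell line. GM12815 has the lowest nascent value for NFKB2 (1.04) and NFKBIE (1.22) and the highest for REL (2.65), and TNIP1 is higher in nascent RNA in every line.

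The second comparison asked which members differ between the 3 lines with replicate cultures, first in the ratio and then in each fraction. By limma's moderated F test, 4 of 10 members differed in the ratio (NFKB2, RELB, NFKBIE and TNIP1), against 25.4% of all clusters tested. In nascent RNA 8 of 10 differed, against 55.8%, and in total RNA 7 of 10, against 61.1%. The median range of line means for the ratio was 0.38 for the members and 0.34 for all clusters, and the medians were 0.27 and 0.32 in nascent RNA and 0.38 and 0.45 in total RNA. By pairs of lines, the ratio of 0, 1 and 3 members passed for GM07029 minus GM10835, GM07029 minus GM12813 and GM10835 minus GM12813, against 13.9%, 5.8% and 23.1% of clusters. In the same order, nascent RNA of 6, 2 and 6 members passed, against 52.5%, 20.6% and 42.5%, and total RNA of 5, 6 and 3 members, against 50.1%, 32.4% and 44.3%. Technical duplicates of a GM12813 culture differed by up to 0.24 in nascent and 0.46 in total RNA, both for REL.

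NFKB2 had ratios of -0.06, -0.31 and -0.12 in GM07029 cultures, 0.23, 0.10 and 0.18 in GM10835 cultures, and -0.23, -0.15 and -0.28 in GM12813 cultures. GM10835 had the highest line mean (F test adjusted p = 0.0363). GM10835 minus GM12813 was 0.39 (95% interval 0.16 to 0.63, adjusted p = 0.0233), and GM07029 minus GM10835 was -0.34 and did not pass (adjusted p = 0.0593). Nascent RNA in GM10835 exceeded GM12813 by 0.41 (adjusted p = 0.00112), and GM07029 minus GM10835 was -0.46 ( adjusted p = 0.000326). Total RNA did not pass (range 0.22, adjusted p = 0.120), although it did without GM07029 replicate 2 (0.0378) or without centring (range 0.30, 0.0450). The ratio call ended without any culture of GM10835 (adjusted p = 0.118, 0.0739 and 0.125 without replicates 1, 2 and 3) or of GM12813 (0.0775, 0.0745 and 0.0934).

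RELB had ratios of -0.03, -0.30 and -0.25 in GM07029 cultures, -0.01, -0.04 and 0.10 in GM10835 cultures, and -0.52, -0.45 and -0.51 in GM12813 cultures. GM12813 had the lowest line mean (F test adjusted p = 0.0164). GM10835 minus GM12813 was 0.51 (95% interval 0.28 to 0.75, adjusted p = 0.00694). Nascent RNA in GM10835 exceeded GM12813 by 0.23 (adjusted p = 0.0108), while total RNA was -0.26 relative to it and just missed the threshold (adjusted p = 0.0527). Total RNA did pass the F test over the 3 lines (adjusted p = 0.0117), with GM07029 minus GM12813 at -0.40 (adjusted p = 0.0101). The ratio call ended without GM10835 replicate 3 (adjusted p = 0.0681) or GM12813 replicate 1, 2 or 3 (0.0555, 0.0531 and 0.0596).

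NFKBIE had ratios of 0.31, 0.65 and 0.35 in GM07029 cultures, 0.67, 0.45 and 0.70 in GM10835 cultures, and -0.04, 0.22 and 0.10 in GM12813 cultures. GM10835 minus GM12813 was 0.51 (95% interval 0.22 to 0.81, adjusted p = 0.0187). The F test gave an adjusted p of 0.0376. In total RNA it had the widest range of line means of the 10 members. In GM07029, total RNA was 0.60 lower than in GM10835 (difference -0.60, adjusted p = 0.000376) and 0.74 lower than in GM12813 (difference -0.74, adjusted p = 0.000291), while GM10835 and GM12813 did not differ past the threshold (-0.14, 95% interval -0.36 to 0.08). Nascent RNA in GM07029 was also lower, with a difference of -0.66 from GM10835 (adjusted p = 7.95e-05) and -0.31 from GM12813 (adjusted p = 0.0263). Nascent RNA in GM10835 exceeded GM12813 by 0.35 (adjusted p = 0.00759). The ratio call ended without GM10835 replicate 1 or 3 (adjusted p = 0.0879 and 0.110) or GM12813 replicate 1, 2 or 3 (0.129, 0.0676 and 0.103), whereas the calls in nascent and total RNA held under all 18 settings.

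TNIP1 had ratios of 0.78, 0.98 and 0.73 in GM07029 cultures, 1.21, 1.07 and 1.12 in GM10835 cultures, and 1.17, 1.49 and 1.44 in GM12813 cultures. GM07029 minus GM12813 was -0.54 (95% interval -0.84 to -0.24, adjusted p = 0.0428). The F test gave an adjusted p of 0.0353. Total RNA in GM07029 exceeded GM12813 by 0.43 (adjusted p = 0.00500) and in GM10835 exceeded it by 0.39 (adjusted p = 0.00472). Nascent RNA in GM07029 minus GM12813 was -0.03 (95% interval -0.15 to 0.08). Its nascent range of 0.17 passed the F test (adjusted p = 0.0352) but not without GM07029 replicate 3 (0.0605), any GM10835 culture (0.0946, 0.0725 and 0.0851 without replicates 1, 2 and 3) or GM12813 replicate 1 or 2 (0.0540 and 0.0691). The ratio call ended without GM07029 replicate 1 or 3 (adjusted p = 0.0518 and 0.0785), GM10835 replicate 1, 2 or 3 (0.0586, 0.0621 and 0.0774) or GM12813 replicate 2 or 3 (0.117 and 0.103).

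**Figure D4:**
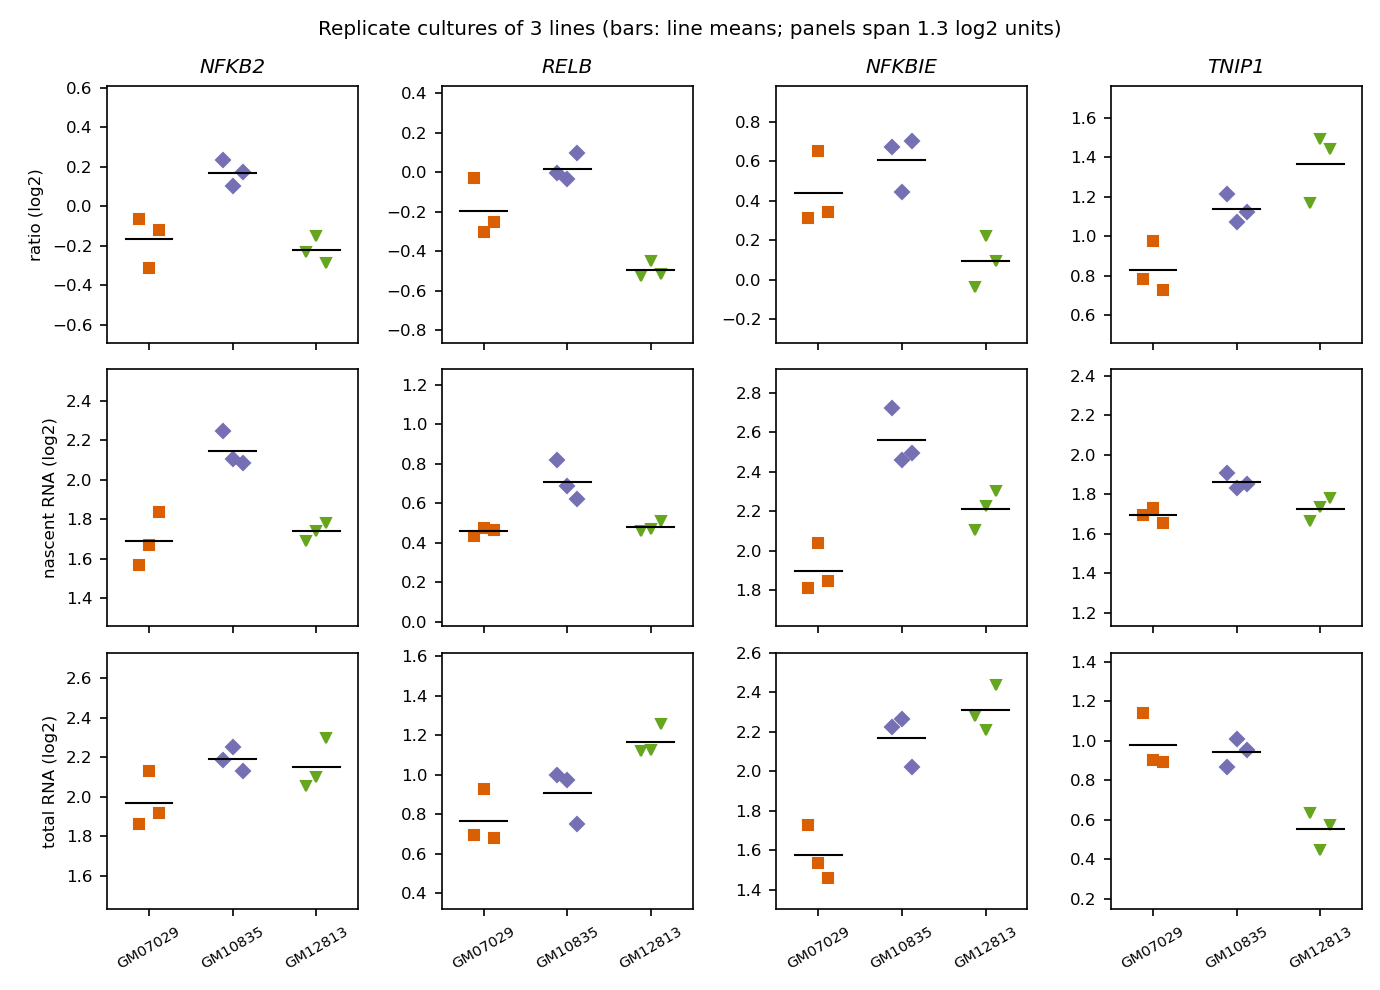
Ratio, nascent RNA and total RNA (log2, relative to the median cluster) of the 4 genes whose ratio differed between GM07029, GM10835 and GM12813. Points are replicate cultures and bars are line means. For NFKB2 GM10835 has the highest mean in nascent RNA, and for TNIP1 GM12813 has the lowest mean in total RNA.

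With no filter on dim clusters the ratio calls of NFKB2 (adjusted p = 0.0522), NFKBIE (0.0852) and TNIP1 (0.0897) ended. They also ended with first arrays only for NFKB2 (0.0525) and TNIP1 (0.0885), with second arrays only for NFKB2 (0.0520) and NFKBIE (0.0897), and without centring for TNIP1 (0.0511).

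The other 6 members did not pass the test for the ratio in the main setting. NFKBIB nascent RNA in GM10835 exceeded GM12813 by 0.61 (adjusted p = 0.000161) and its total RNA by 0.37 (adjusted p = 0.00918). In GM07029 it was lower than in GM10835 by a difference of -0.66 in nascent RNA (adjusted p = 5.06e-05) and -0.63 in total RNA (adjusted p = 0.000215). NFKB1 was higher in GM07029 than in GM10835, by 0.26 in nascent RNA (adjusted p = 0.00281) and by 0.37 in total RNA (adjusted p = 0.00397). With no centring the nascent range of NFKB1 was 0.03 and the call ended (adjusted p = 0.899), as it did with no filter (0.0783) or quantile normalization (0.0950).

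REL was lower in GM10835 than in GM12813, with a difference of -0.40 in nascent RNA (adjusted p = 0.00266) and -0.41 in total RNA (adjusted p = 0.00696). Without centring neither fraction of REL passed (adjusted p = 0.0808 and 0.0785), and its ratio passed without GM10835 replicate 1 (0.0420). TNFAIP3 was higher in total RNA of GM07029 than of GM10835 (0.26, adjusted p = 0.0143) and of GM12813 (0.24, adjusted p = 0.0376). Its nascent range of 0.18 (adjusted p = 0.0371) lost its call under 10 of 18 settings, which included leaving out GM07029 replicate 2 (0.0885) or 3 (0.0881), GM10835 replicate 2 (0.0713) or 3 (0.0593), or any GM12813 culture (0.117, 0.102 and 0.0747 without replicates 1, 2 and 3). Leaving out GM10835 replicate 1 (0.0555) or the centring (0.0695) ended its call in total RNA. Its ratio passed with quantile normalization (range 0.36, 0.0328).

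NFKBIA had ranges of line means of 0.19 in the ratio and 0.14 in each fraction, relative to the median cluster. Its nascent signals were 12.91, 12.61 and 12.72 in GM07029 cultures, 13.20, 13.14 and 13.07 in GM10835 cultures, and 12.86, 12.92 and 12.85 in GM12813 cultures (log2, not centred). Total signals of the 9 cultures lay between 11.83 and 12.11. Relative to the median cluster it did not pass in the ratio, nascent or total RNA (adjusted p = 0.360, 0.269 and 0.386), and its range of line means in total RNA, 0.14, was below that of all but 5.52% of clusters. This depends on the scaling. With quantile normalization the ranges were 0.44, 0.33 and 0.23 and all 3 measures passed (adjusted p = 0.0333, 0.00559 and 0.0431). Nascent RNA also passed without centring (range 0.39, 0.00171) or with no filter (range 0.24, 0.0233). BCL3 did not pass in the ratio, nascent or total RNA (adjusted p = 0.143, 0.113 and 0.0662). Its nascent range of 0.27 was 0.53 without centring and 0.38 with no filter, and passed in both (0.00267 and 0.0286). Its total RNA ranged over 0.33, lowest in GM07029, and passed without GM07029 replicate 2 (0.0169), with second arrays only (0.0435) or without centring (0.0439).

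The genes whose pattern over 13 cultures was most like that of the members with the widest ranges were sought among 9630 other single-symbol clusters. For NFKBIE in total RNA they were DUSP2 (Pearson r = 0.95), ZBTB22 (0.94) and ENO2 (0.93). For NFKBIB in nascent RNA they were LONP1, EMC4 and FAM50A (0.98 each). The 13 cultures come from 7 lines, so cultures of a line are not independent points, and these values are a description.

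Other genes of the pathway, grouped by role, were read over the 7 lines in the same fit. The counts of every list stand beside 31.7% higher and 31.7% lower among all clusters tested. NFKBID, TRAF1 and TNFRSF9 belong to the target genes and to another list, and are counted in both. Of 6 other Rel and IkB genes tested, 2 were higher and 1 lower (median ratio -0.04). RELA, the main activating subunit beside NFKB1, had a ratio of 0.91 ± 0.38 (adjusted p = 7.11e-05). Its ratio also differed between lines (adjusted p = 0.0373), with means of 0.92 for GM07029, 1.45 for GM10835 and 0.95 for GM12813. The repressor NKRF stood at 2.13 with total RNA of 6.14, below background, and the nuclear IkB NFKBID at -0.27. Of 11 tested genes of the IkB kinase complex and the kinases around it, 5 were higher and 3 lower (median 0.30), with the catalytic subunit CHUK at 0.94, and TAB1 (1.09, total RNA below background) and TAB3 (-1.13), which couple the kinase TAK1 to ubiquitin, on opposite sides.

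Of 14 receptors 6 were higher and 6 lower (median 0.08), from TNFRSF13B (TACI) at 1.15 to TLR6 at -1.05 and TNFRSF9 (4-1BB) at -0.87. Of 15 adaptors and ubiquitin ligases 5 were higher and 6 lower (median -0.15): the ligase TRAF6 stood at 0.90, and of the linear ubiquitin ligase complex RNF31 at 0.67 and RBCK1 at -0.99. Of 6 genes that degrade IkB, 1 was higher and 3 lower (median -0.12), among the lower ones UBA3 (-0.85), SKP1 (-0.53) and FBXW11 (-0.30). Of 17 deubiquitinases and other brakes, the list nearest in role to TNFAIP3 and TNIP1, 8 were higher and 4 lower (median 0.16), with USP11 at 1.15, N4BP1 at 1.14 and IRAK3 at -1.29. Of 32 NF-kB target genes outside the members, 8 were higher and 18 lower (median -0.25), from TNF (1.58) and the survival gene BCL2L1 (1.26) to the cytokine subunit EBI3 (-1.29).

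Between the 3 lines, the ratio of 2, 1, 6, 6, 2, 4 and 15 genes of these lists differed, in the order given, against 25.4% of all clusters. NFKBID and TRAF1 are counted in both of their lists. The ligase-activating modifier NEDD8 had the widest range of these genes, 2.61, with -0.54 in GM07029, -2.11 in GM10835 and 0.50 in GM12813. The kinase-binding protein TANK (1.04) and the cytokine TNF (0.95) came next. The other genes with the 2 widest ranges past the threshold in their lists included the adaptors BCL10 (0.83) and MYD88 (0.82). The adhesion molecule CD58 (0.81), TAX1BP1 (0.77), a partner of TNFAIP3, and the ribonuclease ZC3H12A (0.75) were also among them. So were the receptors TLR6 (0.70) and TNFRSF1B (0.66), NFKBID (0.61), UBA3 (0.54) and RELA (0.53).

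**Figure D5:**
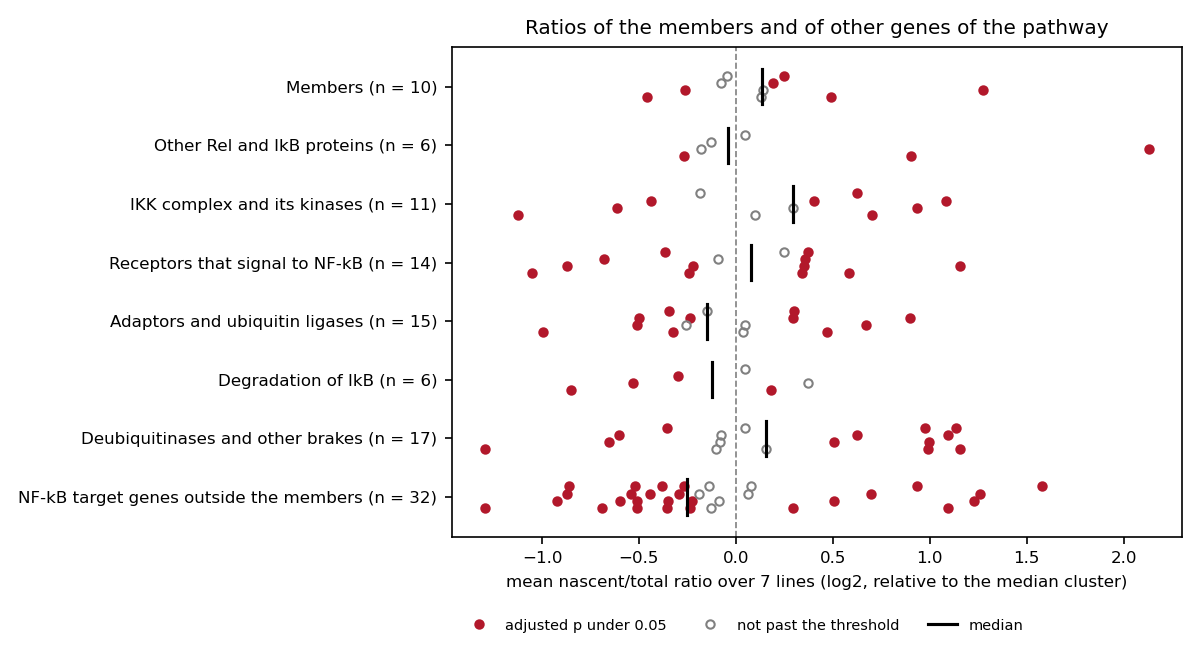
Mean nascent/total ratio over 7 lines (log2, relative to the median cluster) of the 10 members and of other genes of the pathway by list. Filled points passed the test (adjusted p under 0.05), open points did not, and black bars are medians. The members run from -0.46 (RELB) to 1.27 (TNIP1), and the medians of the lists from -0.25 to 0.30.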

How the data were processed

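The authors deposited log2 signals, 1 value per transcript cluster and array. Per the submitters' processing notes, the tool was Affymetrix Power Tools, on hg18. How arrays were normalized is not given in the sources used here. The medians of nascent arrays were 7.58 to 7.92 and those of total arrays 6.74 to 6.95, so ratios are relative. The number of arrays limits the precision. A platform table gave the symbols, updated through RefSeq (14377 of 14405). Technical duplicates were averaged. The ratio of a culture was centred on its median over the 14167 clusters above background, and each fraction was centred likewise.

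limma 3.58.1 in R 4.3.3 (lmFit, and eBayes with a trend) tested the ratio of 7 lines against 0, and 9 cultures between GM07029, GM10835 and GM12813 by a moderated F test and 3 contrasts. P-values were adjusted by the Benjamini-Hochberg method across the clusters tested (threshold 0.05), and "higher", "lower" and "differed" mean past it. The fits were tested on simulated data. The replicates of a line are independent cultures, and the lines come from different donors. Replicate numbers are not said to be shared between lines, so they were not used as pairs. Deviations of same-numbered cultures correlated from -0.43 to 0.20 in the ratio. In nascent RNA they correlated from -0.46 to 0.39, and in total RNA from -0.43 to 0.11.

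The members and the pathway lists were chosen with earlier results of these data known. The genes named from a list are the 3 largest absolute ratios past the threshold, the 2 widest ranges past it between lines, and the 3 clusters most correlated with the widest-ranging member of each fraction. Alternatives covered the filter, the scaling, the variance prior, the unit of replication, the duplicates, pairing and leaving out each line or culture.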

Additional observations from a re-analysis of the deposited data

Results flagged for a closer look

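In 4 of 10 members the nascent/total ratio itself differed between GM07029, GM10835 and GM12813 by the moderated F test, against 25.4% of all clusters tested. The range of line means was 0.54 for TNIP1, 0.51 for RELB, 0.51 for NFKBIE and 0.39 for NFKB2. The ratio, nascent RNA and total RNA of the 10 members over 7 lines were also examined for a line far from the others, and 0 of 30 sets held such a line by Dixon's test, where chance flags about 5% of sets.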

How the results depend on the processing

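Over 7 lines, the TNIP1 and TNFAIP3 calls held under all 20 alternatives, with ratios of 1.13 to 2.05 and 0.34 to 1.26. Without centring 11639 clusters were higher and 762 lower, 10 members were higher and 0 lower, and the ratios of NFKB2 (0.51), RELB (0.31), NFKBIA (0.70) and NFKBIB (0.73) turned positive, since every ratio then moves up. With the trend with signal removed NFKBIA turned to 0.55 and REL passed (0.33). Members called lower numbered 1 with no filter, the stricter filter, quantile normalization, the trend removed, second arrays only or eBayes without a trend. Leaving out a line gave 2 to 4 members higher and 1 to 2 lower. Each array centred on its own median gave 2 members higher, and so did lines without pairing (no replicate block), with 2846 clusters higher. Without pairing but with the main centring, 2 members were higher and 1 lower. The last and the array medians were chosen after the data were seen.

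Between 3 lines, the ratio called 2012 clusters and 1 member with no filter, 2142 clusters and 2 members with first arrays only, and 2 members with second arrays only. Quantile normalization called 6 members, with NFKBIA (0.0333) and TNFAIP3 (0.0328) added. Leaving out a culture gave 1808 to 5065 clusters and 0 to 4 members. With the replicate number as a block 1 member was called, and the labels do not say whether these numbers are shared between lines. The block ended the ratio calls of NFKB2 (adjusted p = 0.0771), NFKBIE (0.0734) and TNIP1 (0.0703). It also ended the nascent calls of TNFAIP3 (0.0586) and TNIP1 (0.0780). The counts for nascent and total RNA stayed within 1.5 times under all 18 settings. Each member had a single cluster, so averaging clusters was not run. The cause of the other changes was not tested.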
